A study of Mus musculus with 8 samples.

Results

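Integrins are receptors made of an alpha and a beta subunit that hold cells to the extracellular matrix and relay that contact to the cytoskeleton and to kinases inside the cell. The alpha subunit largely sets which ligand is bound. Genes for 10 alpha subunits of matrix receptors were taken by symbol from the 26667 rows of the deposited count table, and all 10 were matched. They are the laminin receptors Itga3, Itga6 and Itga7, the collagen receptors Itga1, Itga2 and Itga11, the receptors for RGD (Arg-Gly-Asp) ligands such as fibronectin and vitronectin, Itga5, Itga8 and Itgav, and Itga4, whose product binds fibronectin and the cell surface protein VCAM-1. In connective tissue tumours these receptors are the contact between sarcoma cells and a matrix rich in collagen and fibronectin. Laminin receptors are best known from cells that sit on a basement membrane, such as epithelia and muscle fibres, and the alpha7 subunit is the main laminin receptor of skeletal muscle.

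RNA was measured in 8 undifferentiated pleomorphic sarcomas (UPS), with 1 library for each: KP 5, KP 6, KP 7 and KP 8 came from KP animals, and KPH2 1, KPH2 2, KPH2 3 and KPH2 4 from KPH2 animals. KP mice carried Trp53 fl/fl, and KPH2 mice carried Epas1 fl/fl as well, so that both groups share the other engineered alleles and differ in the gene for HIF-2α, a transcription factor subunit that is stabilised at low oxygen. All animals were of a mixed 129/C57BL/6 background and at least 8 weeks old, and tumours were started by injecting adenovirus carrying Cre into the muscle of the hind limb, so only infected cells and their descendants lose the floxed genes. Tumours were taken 7 weeks after injection or at the largest size allowed, and RNA came from formalin-fixed, paraffin-embedded (FFPE) sections, which can hold vessels, leukocytes and limb muscle along with tumour cells. In such bulk samples fewer cells of a type and less RNA per cell cannot be told apart.

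Total counts ran from 6463221 to 13155510 per tumour, of which the 10 genes took 0.144% to 0.205%. The study's methods leave a knockout tumour, not named there, out of the statistics because it stood apart in principal component analysis and was held to be a technical outlier, and its Results and Methods differ on how many tumours each group had. KPH2 1 was taken to be that tumour, since it is missing from the authors' normalized table of 7 tumours. It is given apart unless all 8 tumours or all 4 KPH2 tumours are named. Each test was run over KP 5 to KP 8 against KPH2 2 to KPH2 4 (7 tumours) and again with KPH2 1 added (8 tumours). The ribosomal RNA gene Rn45s was the top gene in every tumour except KP 6 and took 3.58% to 9.83% of the counts in the 4 KPH2 libraries, but at most 2.79% in the KP libraries. Its part in the results was not tested beyond leaving it out. Levels are counts per 1e+06 counts of the scaled library (CPM), and comparisons between genes use CPM per kilobase (kb) of exon. Values for the KP tumours are given in the order KP 5, KP 6, KP 7 and KP 8, and those for KPH2 2 to KPH2 4 in that order. Log2 fold changes are KPH2 against KP, fitted with edgeR and tested by quasi-likelihood, with p adjusted (Benjamini-Hochberg) across every gene tested, and ± after one is its standard error (SE). For single values, exact 2-sided permutation tests over the tumours cannot go below p = 0.029, with either 7 or 8 tumours.

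Epas1 itself (chromosome 17) stood at 59.2, 83.2, 86.9 and 84.1 CPM in the KP tumours, at 53.4, 37.7 and 42.5 CPM in KPH2 2 to KPH2 4, and at 32.6 CPM in KPH2 1. Every KPH2 tumour lay below every KP tumour. The fold change was -0.81 ± 0.19 on the log2 scale over 7 tumours (edgeR, adjusted p = 0.0742) and -0.91 over 8 (edgeR, adjusted p = 0.117), and neither passed the threshold of 0.05. These counts cover the whole gene and include cells of the host that keep it.

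HIF-2α binds DNA at hypoxia response elements with the core ACGTG or GCGTG, so the promoters of the alpha subunits were searched for these letters. RefSeq promoter sequences (GRCm38.p6), cut to the 250 bases before the annotated start, were found for 8 of the 10 genes in 9 sequences, Itga3 having 2 starts. Itga6 and Itga7 were not matched. Only the promoter of Itga2 held ACGTG or GCGTG on either strand, with 1 match, a GCGTG that begins 46 bases before the start. Over all 32851 promoters of the same length, 38.6% held at least 1 of these motifs, ACGTG being found in 16.6% and GCGTG in 28.2%. A match is only a match of letters, and its absence concerns this window alone. For Itga3, Itga8 and Itgav the start used lies inside the gene span given below, which reaches further upstream. Printed 5′ to 3′ on the strand of the gene, with the motif in capitals, are the first promoter of Itga3 (chr11:95076715-95076964, minus strand), the gene with the largest fold change here, that of Itgav (chr2:83724147-83724396, plus strand), whose levels were lower in all KPH2 tumours, and that of Itga2 (chr13:114932101-114932350, minus strand), which holds the match.
Itga3: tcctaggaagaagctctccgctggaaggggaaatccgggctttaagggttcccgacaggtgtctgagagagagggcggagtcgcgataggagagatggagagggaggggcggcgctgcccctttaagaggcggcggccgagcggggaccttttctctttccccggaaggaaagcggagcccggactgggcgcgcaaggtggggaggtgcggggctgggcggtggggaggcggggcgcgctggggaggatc
Itgav: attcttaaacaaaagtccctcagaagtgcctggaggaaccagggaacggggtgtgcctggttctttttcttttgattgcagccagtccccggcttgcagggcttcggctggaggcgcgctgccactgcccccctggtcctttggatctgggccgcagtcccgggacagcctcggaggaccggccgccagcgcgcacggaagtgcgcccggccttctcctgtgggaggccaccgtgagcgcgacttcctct
Itga2: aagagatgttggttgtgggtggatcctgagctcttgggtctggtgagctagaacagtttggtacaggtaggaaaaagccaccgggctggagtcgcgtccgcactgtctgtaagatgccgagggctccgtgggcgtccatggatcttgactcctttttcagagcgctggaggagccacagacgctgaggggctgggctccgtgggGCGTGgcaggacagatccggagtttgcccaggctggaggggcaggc

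The laminin receptors were higher in KPH2 2 to KPH2 4 than in any KP tumour, for all 3 genes, but not in KPH2 1, where 8.73% of all genes tested were higher without overlap in KPH2 2 to KPH2 4. Itga7 passed the test over 7 tumours, and Itga3 and Itga6 did not, by a small margin in the case of Itga6. None of the 3 passed in edgeR once KPH2 1 was added.

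Itga7 (chromosome 10, GRCm38 128933421 to 128958286), the laminin receptor of muscle fibres, was counted at 17.7, 38.1, 29.2 and 44.8 CPM in the KP tumours and at 156, 122 and 139 CPM in KPH2 2 to KPH2 4. KPH2 1 had 6.47 CPM, the lowest level of all 8 tumours. The 3 high tumours were thus close together and well above the KP range, while the fourth lay below it. The KP mean was 32.4 ± 11.7 CPM (SD, n = 4) and that of KPH2 2 to KPH2 4 was 139 ± 16.99 CPM (SD, n = 3), a 4.29-fold rise (log2 fold change 2.10 ± 0.29, edgeR adjusted p = 0.0191; exact permutation test, 2-sided p = 0.029). With KPH2 1 added the log2 fold change was 1.71 ± 0.75 (edgeR, adjusted p = 0.337; exact permutation p = 0.4). The call over 7 tumours also rested on KP 7 and on KPH2 2, since the edgeR adjusted p was 0.0562 without the first and 0.0659 without the second, while the log2 fold change stayed at 2.05 and 2.01.

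Itga3 (chromosome 11, 95044475 to 95076844), whose product binds laminins of epithelial basement membranes, stood at 12.1, 29.1, 84.5 and 15.8 CPM in the KP tumours, at 167, 194 and 291 CPM in KPH2 2 to KPH2 4, and at 32.3 CPM in KPH2 1. KP 7 was high for its group, yet its level was still below the lowest of the 3 KPH2 tumours, and KPH2 1 was in the middle of the KP range. It gave a log2 fold change of 2.63 ± 0.64, or 6.19-fold (edgeR, adjusted p = 0.082; exact permutation p = 0.057), and 2.28 with KPH2 1 (edgeR, adjusted p = 0.242). Without KP 7 it was 3.52 and passed, with an edgeR adjusted p of 0.0298. DESeq2 on the same counts called Itga3 over 7 tumours (adjusted p = 0.000272) and over 8 (adjusted p = 0.0233), and limma on the authors' log2 values called it over 7 (adjusted p = 0.0402) but not over 8 (adjusted p = 0.257).

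Itga6 (chromosome 2, 71786886 to 71858427), which pairs with beta1 and, in hemidesmosomes, with beta4, had the highest level per kb of the 3 laminin receptors in every tumour. It was counted at 245, 228, 157 and 209 CPM in the KP tumours, at 550.4, 348 and 391 CPM in KPH2 2 to KPH2 4 and at 217 CPM in KPH2 1. The KP tumours and KPH2 1 lay within a narrow band, with the other KPH2 tumours above it. The log2 fold change of 1.03 ± 0.21, about 2.05-fold, missed the threshold (edgeR, adjusted p = 0.0523; exact permutation p = 0.029), as it did over 8 tumours (0.84, edgeR adjusted p = 0.221). DESeq2 called it over 7 tumours (adjusted p = 0.000773) and not over 8 (adjusted p = 0.0753).

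**Figure D1:**
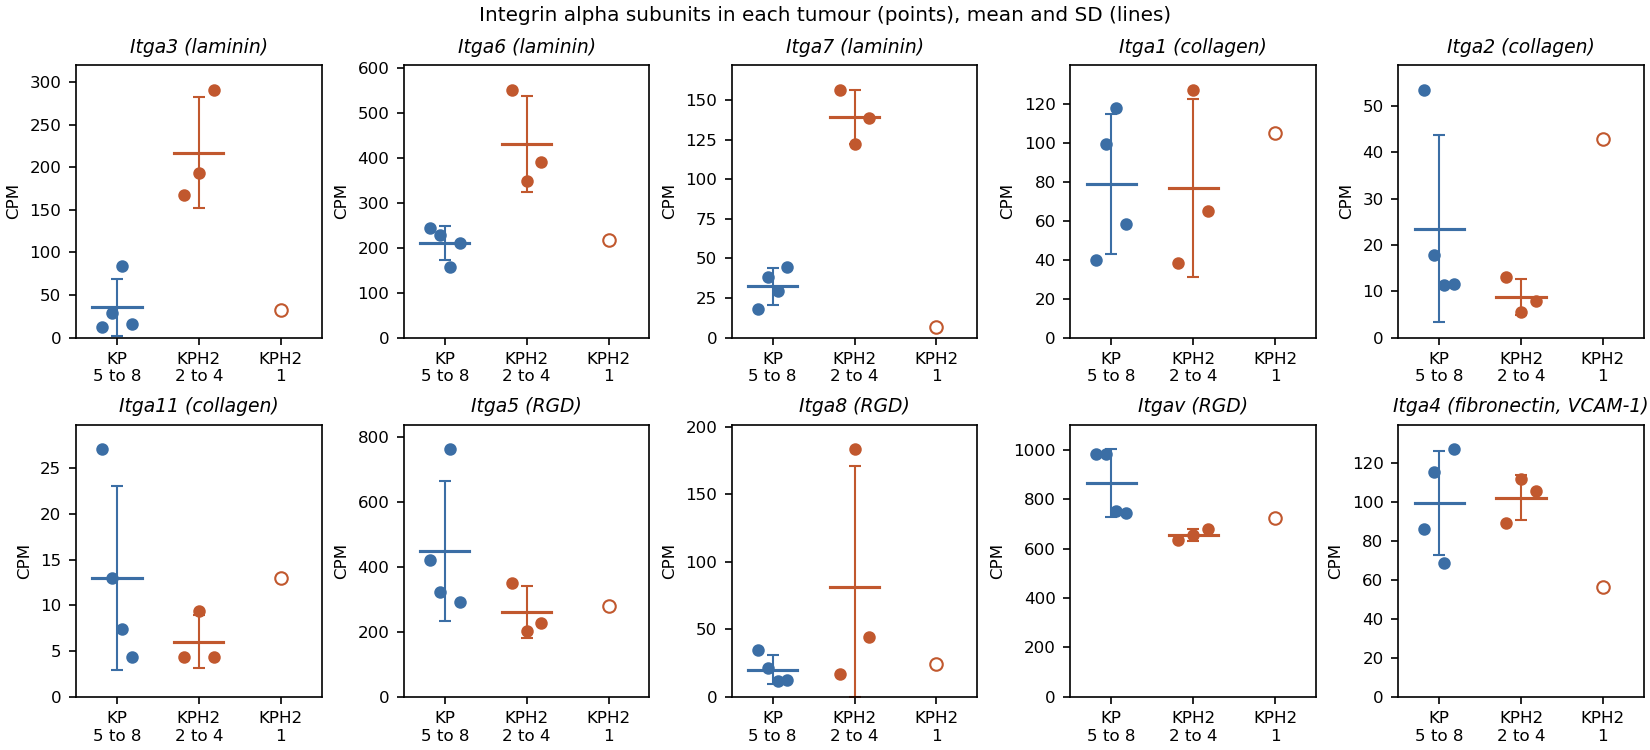
Level of each of the 10 alpha subunit genes in each tumour, in CPM on linear axes from 0 that differ between panels; points are tumours, horizontal lines the group means, vertical lines 1 SD (cut off at 0 for Itga8), and KPH2 1 is the open circle at the right. Itga3, Itga6 and Itga7 lie above all KP tumours in KPH2 2 to KPH2 4 but not in KPH2 1, and Itgav lies below all KP tumours in all KPH2 tumours.

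Among the receptors for RGD ligands, Itgav was slightly lower in all KPH2 tumours and the other two differed with single tumours. None of the 3 passed the edgeR test over 7 or 8 tumours. Itgav (chromosome 2, 83722303 to 83806917), which pairs with beta1, beta3, beta5, beta6 or beta8, stood at 983, 985, 751 and 744 CPM in the KP tumours, at 634, 654 and 679 CPM in KPH2 2 to KPH2 4 and at 725 CPM in KPH2 1. It was the only one of the 10 genes for which all 4 KPH2 tumours lay on the same side of the KP range, though the gap between KPH2 1 and KP 8 was small. Its log2 fold change came to -0.40 ± 0.17 over 7 tumours (edgeR, adjusted p = 0.263; exact permutation p = 0.086) and -0.36 over 8 (edgeR, adjusted p = 0.319; exact permutation p = 0.029, the smallest this test can give).

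Itga5 (chromosome 15, 103344286 to 103366791), the alpha subunit of the classical fibronectin receptor, was counted at 420.5, 323, 763 and 294 CPM in the KP tumours, at 352, 204 and 227 CPM in KPH2 2 to KPH2 4 and at 281 CPM in KPH2 1. KP 7 had the highest level, and the groups overlapped through KPH2 2. The log2 fold change of -0.79 ± 0.36 did not pass (edgeR, adjusted p = 0.31). Itga8 (chromosome 2, 12106632 to 12301985), a receptor for nephronectin, had 34.6, 21.4, 11.4 and 12.2 CPM in the KP tumours, 16.6, 183 and 44.4 CPM in KPH2 2 to KPH2 4 and 24.4 CPM in KPH2 1. KPH2 3 was far above all other tumours and KPH2 2 was inside the KP range. The log2 fold change was 2.02 ± 0.75 (edgeR, adjusted p = 0.211) and 0.61 without KPH2 3 (edgeR, adjusted p = 0.674), so most of its size came from that tumour.

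None of the 3 collagen receptors passed the test, and each overlapped between the groups. Itga2 (chromosome 13, 114833081 to 114932100), the collagen receptor of platelets and epithelia, stood at 53.5, 17.8, 11.4 and 11.5 CPM in the KP tumours, at 13.1, 5.5 and 7.89 CPM in KPH2 2 to KPH2 4 and at 42.9 CPM in KPH2 1. KP 5 and KPH2 1 were the high tumours, one in each group. Its fitted log2 fold change was -1.42 ± 0.62 over 7 tumours (edgeR, adjusted p = 0.282) and -0.44 over 8, and without KP 5 it was -0.61 (edgeR, adjusted p = 0.405). Itga11 (chromosome 9, 62677855 to 62783979), a receptor for fibrillar collagen on fibroblasts, had the lowest mean level per kb of the 10 genes in both groups. It was counted at 27.1, 13.02, 7.41 and 4.38 CPM in the KP tumours, 4.32, 9.41 and 4.4 CPM in KPH2 2 to KPH2 4 and 13.03 CPM in KPH2 1. Its highest level was in KP 5, as for Itga2, and the other tumours of both groups were mixed (log2 fold change -1.11 ± 0.63, edgeR adjusted p = 0.41; without KP 5 -0.43, adjusted p = 0.68). Itga1 (chromosome 13, 114958079 to 115101964), a receptor for collagen IV, ranged from 39.8 to 118 CPM in the KP tumours and from 38.1 to 127 CPM in KPH2 2 to KPH2 4, with 105 CPM in KPH2 1. Its log2 fold change of -0.04 had a 95% interval from -1.14 to 1.06, so changes of up to about that size in either direction were not excluded by these tumours.

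Itga4 (chromosome 2, 79255426 to 79333114), found on leukocytes and on developing muscle, was at 86.4, 115, 68.8 and 127 CPM in the KP tumours, at 89.3, 112 and 106 CPM in KPH2 2 to KPH2 4, all within the KP range, and at 56.3 CPM in KPH2 1, below it. The log2 fold change was 0.04, with a 95% interval from -0.47 to 0.55 (edgeR, adjusted p = 0.954).

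Over the 10 genes, 5 had a higher and 5 a lower fitted level in KPH2 2 to KPH2 4, and the median log2 fold change was -0.00, against -0.02 over all genes tested. With an adjusted p under 0.05 in edgeR over 7 tumours, 1 of 10 was called (Itga7, higher), where 1.96% of the 14867 genes tested were called (1.24% higher and 0.72% lower). At an unadjusted p under 0.05, 4 were higher (Itga3, Itga6, Itga7 and Itga8) and 1 was lower (Itgav), against 8.5% and 9.26% of all genes (17.8% in either direction). With no overlap between KP and KPH2 2 to KPH2 4, 3 were higher (Itga3, Itga6 and Itga7) and 1 was lower (Itgav), where 8.73% and 8.15% of all genes were. Over 8 tumours edgeR called 0 of the 10, against 1 of the 14805 genes tested (0.00675%), 6 of the 10 had an unadjusted p under 0.05, where 14.7% of all genes did, and DESeq2 called 1 (Itga3), against 4.14% of its 14752 genes with an adjusted p. Over 7 tumours DESeq2 called 3 (Itga3, Itga6 and Itga7), against 7.95% of all genes, and limma on the authors' log2 values called 2 (Itga3 and Itga7), against 2.17%, and over 8 tumours 0, against 0.128%. Without overlap over 8 tumours was 1 gene, Itgav, which was lower, where 4.39% of all genes were lower and 8.15% differed in either direction. KPH2 1 lay inside the KP range for 6 of the 10 genes (Itga1, Itga2, Itga3, Itga6, Itga8 and Itga11) and below it for 4 (Itga4, Itga5, Itga7 and Itgav).

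**Figure D2:**
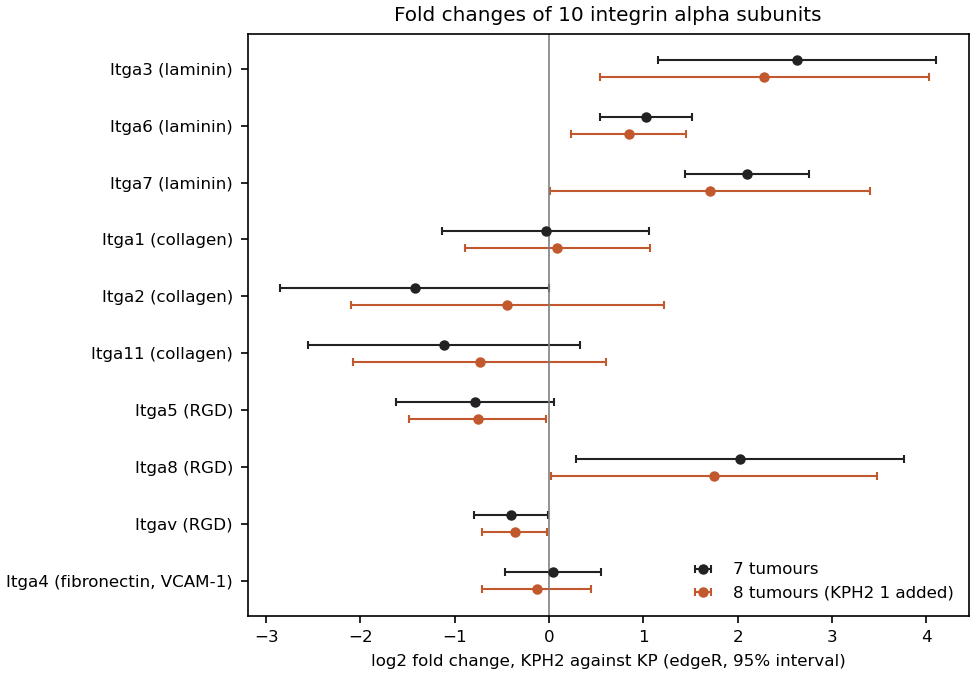
Log2 fold change of each alpha subunit gene, KPH2 against KP, from edgeR with 95% intervals, over 7 tumours (dark points) and over 8 with KPH2 1 added (orange points). Itga3 is at 2.63 and Itga7 at 2.10 over 7 tumours, and the interval of Itga7 widens when KPH2 1 enters.

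Per kilobase of exon, the order of the alpha subunits differed between the groups. In the KP tumours Itgav led at 123 ± 19.4 CPM per kb (SD, n = 4), followed by Itga5 at 103 ± 49.2 and Itga6 at 48.1 ± 8.68, and then by Itga4 at 10.2 ± 2.73, Itga7 at 7.83 ± 2.82, Itga1 at 7.19 ± 3.28 and Itga3 at 6.74 ± 6.38. Itga8, Itga2 and Itga11 were lowest, at 3.42 ± 1.86, 3.31 ± 2.84 and 2.61 ± 2.03 CPM per kb. Neighbours in this order overlapped between tumours except at the steps from Itga5 to Itga6 and from Itga6 to Itga4.

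In KPH2 2 to KPH2 4 the level per kb was 98.5 ± 24.5 for Itga6 and 92.9 ± 3.19 for Itgav (SD, n = 3), which overlapped, then 59.6 ± 18.2 for Itga5, 41.4 ± 12.4 for Itga3 and 33.6 ± 4.1 for Itga7. Itga8 followed at 14.02 ± 15.4, with its high tumour KPH2 3, then Itga4 at 10.5 ± 1.19 and Itga1 at 6.99 ± 4.16 CPM per kb, with Itga2 and Itga11 at 1.24 ± 0.543 and 1.22 ± 0.587. Only the steps from Itgav to Itga5 and from Itga1 to Itga2 separated neighbours here.

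As a share of the summed level per kb of the 10 genes, the 3 laminin receptors made up 19.02%, 21.6%, 16.3% and 24.02% in the KP tumours, 50.96%, 42.7% and 50.6% in KPH2 2 to KPH2 4, and 22.8% in KPH2 1. The 3 receptors for RGD ligands made up 73.3%, 70.01%, 77.9% and 67.9% in the KP tumours, 45.1%, 49.8% and 44.1% in KPH2 2 to KPH2 4, and 67.7% in KPH2 1. KPH2 1 was thus inside or next to the KP range for both classes, and the other KPH2 tumours stood apart. The collagen receptors took at most 7.21% and Itga4 at most 5.06% in any tumour. The sum itself ran from 257 to 363 CPM per kb in the KP tumours, from 343 to 384 in KPH2 2 to KPH2 4 and was 252 in KPH2 1, beside 175 to 380, 305 to 388 and 282 CPM per kb for Itgb1, whose product pairs with all of these alpha subunits. These shares are a description of the levels above and were not tested.

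**Figure D3:**
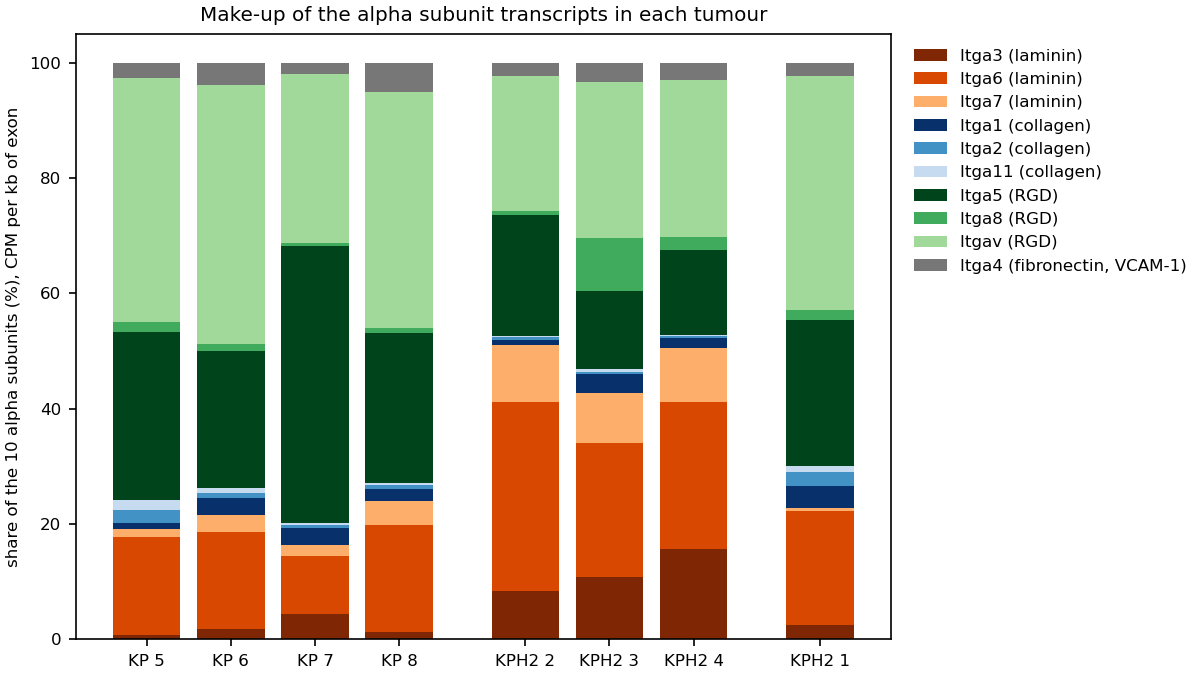
Make-up of the alpha subunit transcripts in each tumour, as the share (%) of each gene in the summed CPM per kb of exon of the 10 genes. Laminin receptors (browns, at the foot of each bar) reach 42.7% to 50.96% in KPH2 2 to KPH2 4 and 16.3% to 24.02% in the KP tumours, with 22.8% in KPH2 1.

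Whether members of one ligand class moved by different amounts was tested on the log2 ratio of their levels in 9 pairs. The ratio of Itga7 to Itga6 was higher by 1.14 on the log2 scale in KPH2 2 to KPH2 4 than in KP (exact permutation test, 2-sided p = 0.057) and that of Itga3 to Itga6 by 1.97 (exact permutation p = 0.086). Itga8 to Itgav was higher by 1.90 (exact permutation p = 0.057). With KPH2 1 added these differences were 0.29 for Itga7 to Itga6 (exact permutation p = 0.743), 1.54 for Itga3 to Itga6 and 1.59 for Itga8 to Itgav. That of Itga8 to Itgav was 0.98 without KPH2 3 and 2.68 without KPH2 2, and that of Itga3 to Itga6 was 2.66 without KP 7. None passed after Benjamini-Hochberg adjustment over the 9 pairs, where the smallest adjusted p of these exact permutation tests was 0.257.

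Beta subunits and ligands from lists of integrin genes were read beside the alpha subunits. Among 8 beta subunits, edgeR over 7 tumours called Itgb4 higher and Itgb3 lower. Itgb4, the beta subunit that joins alpha6 in hemidesmosomes, stood at 16.3, 10.2, 8.6 and 30.3 CPM in the KP tumours, 80.6, 70.2 and 169 CPM in KPH2 2 to KPH2 4 and 7.03 CPM in KPH2 1, with KPH2 1 again on the KP side (log2 fold change 2.68 ± 0.49, edgeR adjusted p = 0.0407; over 8 tumours 2.30, adjusted p = 0.25). Itgb3, a partner of alpha-v, had 79.9, 119, 134 and 103 CPM in the KP tumours, 55.99, 32.1 and 38.3 CPM in KPH2 2 to KPH2 4 and 81.6 CPM in KPH2 1 (log2 fold change -1.37 ± 0.25, edgeR adjusted p = 0.0377; over 8 tumours -1.07, adjusted p = 0.184). The common partner Itgb1 averaged 1139 ± 334 CPM over the 4 KP tumours (SD) and 1313 ± 160.4 CPM over KPH2 2 to KPH2 4 (SD, n = 3), a difference within the spread (edgeR, adjusted p = 0.741). Itgb5, another partner of alpha-v, averaged 313 ± 66.5 and 199.9 ± 74.8 CPM (SD) and did not pass (edgeR, adjusted p = 0.257).

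Of 11 laminin chains, 7 had a higher and 4 a lower fitted level, and Lama5 and Lamb3 passed the test over 7 tumours, both higher. Lama5 encodes the alpha5 chain of basement membranes, a ligand of alpha3 and alpha6 receptors, and stood at 34.9, 43.3, 47.7 and 35.4 CPM in the KP tumours, 440.3, 360.1 and 527 CPM in KPH2 2 to KPH2 4 and 25.6 CPM in KPH2 1. The 3 KPH2 tumours lay far above the rest, and KPH2 1 was the lowest of all 8. Its log2 fold change of 3.46 ± 0.19 passed in edgeR (adjusted p = 0.00072) but not over 8 tumours (3.07, adjusted p = 0.149). Lamb3, a chain of the laminin found under hemidesmosomes, was low, from 0.148 to 0.707 CPM in the KP tumours and from 2.48 to 4 CPM in KPH2 2 to KPH2 4 (edgeR, adjusted p = 0.027), and was too low to be tested over 8 tumours. Lama4, the chain of vessel walls, was lower in all 4 KPH2 tumours than in any KP tumour, at 392 to 530.4 CPM in KP, 212 to 323 CPM in KPH2 2 to KPH2 4 and 242 CPM in KPH2 1, without passing (log2 fold change -0.78 ± 0.20, edgeR adjusted p = 0.0861).

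The 10 collagen genes that serve as ligands all had lower fitted levels in KPH2 2 to KPH2 4, and none passed. Of 11 tested ligands of RGD receptors and of alpha4, 7 were fitted higher and 4 lower, and Npnt and Vcam1 passed over 7 tumours. Npnt encodes nephronectin, the ligand of alpha8, and stood at 8.24, 12.03, 3.85 and 12.98 CPM in the KP tumours, 39.5, 49.4 and 34.4 CPM in KPH2 2 to KPH2 4 and 7.11 CPM in KPH2 1 (log2 fold change 2.14 ± 0.36, edgeR adjusted p = 0.0325). It was higher in all 3 of these tumours, whereas Itga8 was high only in KPH2 3 and, less so, in KPH2 4. Vcam1, the ligand of alpha4, was at 85.3, 145, 107 and 136 CPM in the KP tumours, 238, 235 and 301 CPM in KPH2 2 to KPH2 4 and 44.7 CPM in KPH2 1 (log2 fold change 1.12 ± 0.21, edgeR adjusted p = 0.0381). Fn1, which encodes fibronectin, ranged from 5465 to 25047 CPM in the KP tumours and from 8001 to 12719.5 CPM in KPH2 2 to KPH2 4. Over 8 tumours neither Npnt (edgeR, adjusted p = 0.221) nor Vcam1 (edgeR, adjusted p = 0.48) passed.

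**Figure D4:**
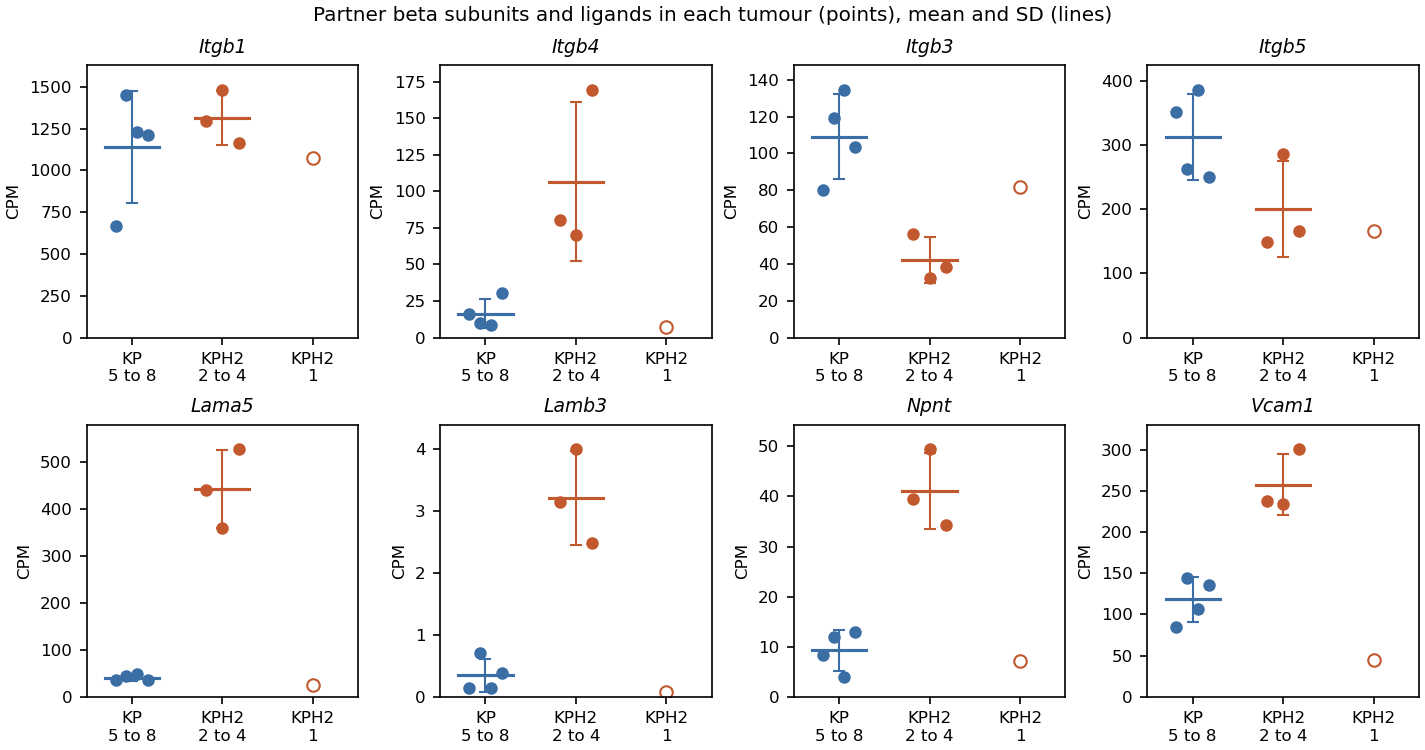
Level of 4 beta subunits, 2 laminin chains, Npnt and Vcam1 in each tumour, in CPM on linear axes from 0 that differ between panels; points are tumours, lines the group means and 1 SD, and KPH2 1 is the open circle. Lama5 lies between 34.9 and 47.7 CPM in the KP tumours and between 360.1 and 527 CPM in KPH2 2 to KPH2 4, with 25.6 CPM in KPH2 1.

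Inside the cell, 18 adaptors and kinases of integrin adhesions were tested, with 11 fitted higher and 7 lower. Bcar1, which encodes the adaptor p130Cas, was the one that passed, at 22.7 to 32.2 CPM in KP, 46.9 to 71.5 CPM in KPH2 2 to KPH2 4 and 27.97 CPM in KPH2 1 (log2 fold change 1.10 ± 0.20, edgeR adjusted p = 0.0381). Tln1, the gene of talin 1, which switches integrins on, averaged 804 ± 154 CPM over the 4 KP tumours (SD) and 817 ± 80.8 CPM over KPH2 2 to KPH2 4 (SD, n = 3). Of 7 tested alpha subunits outside the 10, among them those of leukocytes, 2 were fitted higher and 5 lower, and Itgax passed, at 9.88 to 15.1 CPM in KP and 26.7 to 31.02 CPM in KPH2 2 to KPH2 4 (log2 fold change 1.24 ± 0.19, edgeR adjusted p = 0.0239). With KPH2 1 at 10.8 CPM, Itgax did not pass over 8 tumours (edgeR, adjusted p = 0.22). When each of the 7 tumours was left out in turn, Lama5 passed in all 7 fits. Itgax and Lamb3 passed in 2 of these fits, Itgb3, Itgb4, Npnt and Vcam1 in 1, and Bcar1 in 0, while the log2 fold changes stayed at 1.16 to 1.37 for Itgax, 2.94 to 3.70 for Lamb3, -1.63 to -1.21 for Itgb3, 2.19 to 3.17 for Itgb4, 1.89 to 2.34 for Npnt, 1.001 to 1.23 for Vcam1 and 0.89 to 1.22 for Bcar1. The largest edgeR adjusted p in these fits was 0.112, for Itgb3.

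Markers of limb muscle were read beside these genes. All 30 skeletal muscle fibre markers were fitted higher in KPH2 2 to KPH2 4, with a median log2 fold change of 2.22, and 2 passed (Neb and Eno3). Their summed level ran from 1835 to 3353 CPM in the KP tumours and from 4351 to 19651 CPM in KPH2 2 to KPH2 4, with 1512 CPM in KPH2 1. Of 5 tested myogenic progenitor markers all were fitted higher and Myf5 passed, at 0.149, 2.41, 0 and 0.0755 CPM in the KP tumours, 47.9, 15.9 and 18.4 CPM in KPH2 2 to KPH2 4 and 0 counts in KPH2 1. The mean log2 CPM of the muscle fibre markers was 4.47, 3.59, 3.29 and 4.32 in the KP tumours, 6.51, 7.14 and 4.85 in KPH2 2 to KPH2 4 and 3.33 in KPH2 1. KPH2 2 to KPH2 4 were all above the KP range on this score, as they were for Itga3, Itga6 and Itga7, and KPH2 1 was inside it. Within the KP tumours, KP 5 had the highest score, the highest Itga6 and the lowest Itga3 and Itga7, and KP 7 had the lowest score, the lowest Itga6 and the highest Itga3. KP 8, next below KP 5 on the score, had the highest Itga7 of the KP tumours, at 44.8 CPM. Of KPH2 2 to KPH2 4, KPH2 4 had the lowest score and the highest Itga3, and KPH2 3 had the highest score and the lowest Itga6 and Itga7. With this score as a covariate over 7 tumours, the log2 fold change was 2.25 ± 0.53 for Itga7 (edgeR, adjusted p = 0.411) and 4.67 ± 0.99 for Itga3 (edgeR, adjusted p = 0.36). It was 0.81 ± 0.40 for Itga6 (edgeR, adjusted p = 0.754) and 0.22 ± 1.13 for Itga8 (edgeR, adjusted p = 0.985), where 0.0202% of all genes were called. Among the genes fitted lower it was -2.17 ± 1.08 for Itga2 (edgeR, adjusted p = 0.772), -2.30 ± 1.05 for Itga11 (edgeR, adjusted p = 0.721), -0.33 ± 0.76 for Itga5 and -0.40 ± 0.34 for Itgav, and none of the 10 genes passed. Since KPH2 2 to KPH2 4 all scored above the KP tumours, this fit cannot separate genotype from muscle content.

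**Figure D5:**
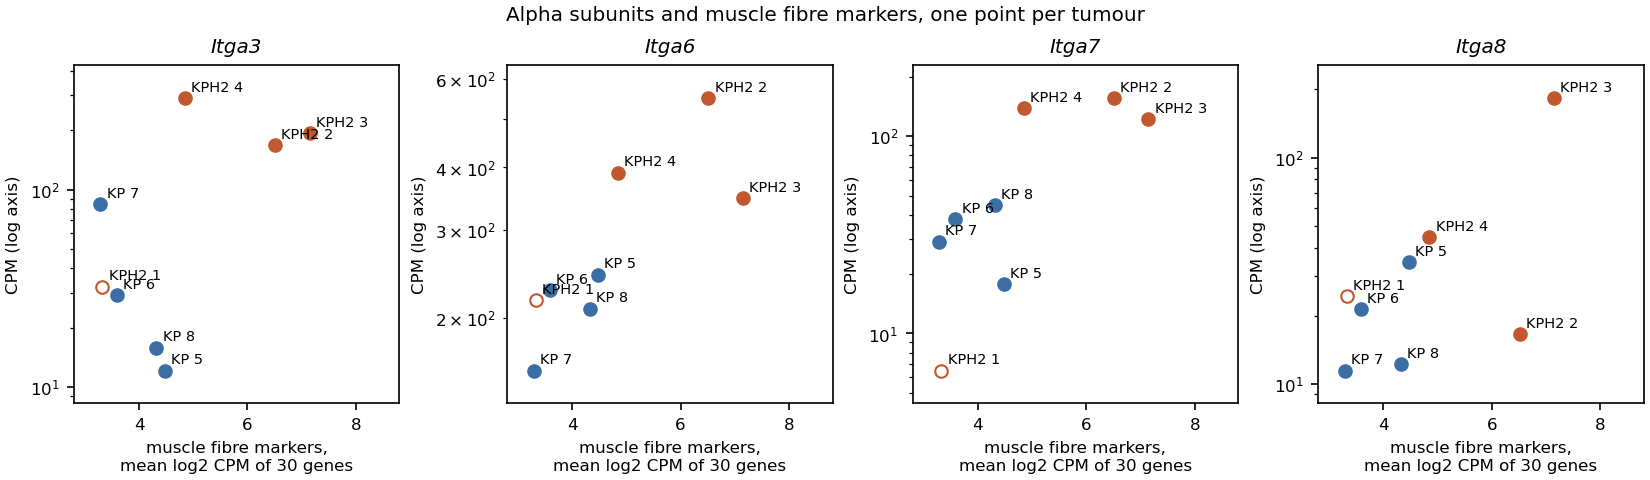
Level of Itga3, Itga6, Itga7 and Itga8 (CPM, log axis) against the mean log2 CPM of 30 skeletal muscle fibre markers, 1 point for each tumour, with KP in blue, KPH2 2 to KPH2 4 in orange and KPH2 1 open. KPH2 2 to KPH2 4 lie between 4.85 and 7.14 on the muscle axis, above the KP tumours at 3.29 to 4.47, and KPH2 1 lies at 3.33.

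Few markers of other cell types passed the test. Of 3 tested epithelial markers all were fitted higher, and Krt8 and Krt18 passed. Krt8, a keratin of simple epithelia, was at 2.01, 0.707, 1.04 and 0.755 CPM in the KP tumours, 262, 6.9 and 283 CPM in KPH2 2 to KPH2 4 and 1.44 CPM in KPH2 1. Its partner Krt18 was at 0.445 to 4.53 CPM in KP, 202, 40.8 and 228 CPM in KPH2 2 to KPH2 4 and 56.2 CPM in KPH2 1. Summed over the list, epithelial markers were at 4.00 to 7.35 CPM in KP, 50.1 to 525 CPM in KPH2 2 to KPH2 4 and 58.3 CPM in KPH2 1. The third tested marker, Cdh1 (E-cadherin), was at 0.446, 0.99, 2.22 and 1.36 CPM in the KP tumours, 6.75, 1.5 and 10.8 CPM in KPH2 2 to KPH2 4 and 0.16 CPM in KPH2 1, and did not pass (log2 fold change 2.37, edgeR adjusted p = 0.13). Of the 4 markers too low to be tested, Krt5 and Krt14 had 0 counts in all tumours, and Epcam and Krt19 reached at most 1.41 and 1.8 CPM. Of 9 mesenchymal markers, 3 were fitted higher and 6 lower, with a median log2 fold change of -1.20, and Pdgfra passed, lower. Their summed level was 7006 to 10069 CPM in KP, 4351 to 5956 CPM in KPH2 2 to KPH2 4 and 5344 CPM in KPH2 1. Endothelial, pericyte and leukocyte markers were mostly fitted lower (7 of 8, 7 of 8 and 8 of 8 tested), and of these only the pericyte and smooth muscle marker Cnn1 passed, lower. Leaving out 1 tumour at a time, Eno3 passed in all 7 fits, Krt18 and Pdgfra in 6 (not without KPH2 2), Krt8 and Cnn1 in 2, and Neb and Myf5 in 1. Over 8 tumours edgeR called none of these 7 genes, with adjusted p from 0.0757 (Krt18) to 0.243 (Neb). The part of these cell types in the integrin results was not tested, and the fit with the muscle score could not separate muscle from genotype.

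The genes whose level over the 8 tumours was most like that of the laminin receptors were found by Pearson's r of log2 CPM over 14692 other genes, as a description, since tumours of 2 groups share the contrast. Most like Itga7 were Fam160a1 (r = 0.988), Khdrbs3 (r = 0.988) and Vcam1 (r = 0.987), with Vcam1 as described above. Khdrbs3, an RNA-binding protein gene, followed Itga7 from 27.6 to 38.3 CPM in the KP tumours, through 90.9 to 112 CPM in KPH2 2 to KPH2 4, down to 10.3 CPM in KPH2 1. Most like Itga6 were Sdc4, the heparan sulphate proteoglycan syndecan-4 (r = 0.971), Myl6b (r = 0.966) and Fbxo32 (r = 0.964), and most like Itga3 were Enthd1 and Cdk18 (r = 0.994 for both) and Msi2 (r = 0.976). Enthd1 reached at most 7.2 CPM.

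Some of these genes share their locus with another. Exons of Itga4, Itga7 and Itga8 overlap Cerkl, Mettl7b and E030013I19Rik on the opposite strand, which had at most 1.3, 0.7 and 2.1 CPM in any tumour, below the level of the alpha subunit in every tumour. Exons of Itga1 also overlap Gm49395 on the same strand, and those of Itgav overlap Gm13684 on the opposite strand, for which no level was analysed here. Libraries were stranded, and the strand setting of the count is not given in the sources used here. The lowest count behind any value of the 10 genes was 39 (Itga11 in KPH2 4) and the highest 13242 (Itgav in KP 5).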

How the data were processed

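RNA from FFPE sections of 8 UPS tumours was extracted, depleted of ribosomal RNA and made into stranded libraries. Per the submitters' processing notes, reads were handled with CASAVA 1.8.2, STAR 2.4 (GRCm38) and HTSeq 0.6.1, and DESeq2 1.6 gave the normalized values. The authors deposited raw counts per RefSeq gene for all 8 tumours, and log2 values from the regularized log transformation (rlog) for 7 and for 8 tumours, in which libraries are scaled and low genes shrunk. Multi-mapping reads are not counted, so closely similar sequence lowers a count.

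The counts were compared with edgeR 4.0.16 (R 4.3.3): TMM normalization, filterByExpr (minimum count 10, minimum total count 15), robust dispersions and the quasi-likelihood test, with the threshold of 0.05 on Benjamini-Hochberg adjusted p over all genes. The paper's samples were taken as the 7 tumours of the smaller rlog table. The SE is the absolute log2 fold change divided by the square root of F. CPM used TMM library sizes over all 8 tumours, and log2 values a prior count of 2. Exon lengths are the union of GENCODE exons (GRCm38) of RefSeq-matched transcripts. DESeq2 1.42.0, limma 3.58.1 on the rlog values, other normalizations and filters, leaving out each tumour and the muscle marker score as a covariate were alternatives. Leaving out Rn45s was chosen after seeing the data. The tests were tried on simulated counts of 7 tumours in which 200 genes were changed by 2 on the log2 scale. Of these edgeR recovered 174 and DESeq2 175. Among unchanged genes edgeR called 10 and DESeq2 called 21.

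The 10 genes and all gene lists were chosen with earlier results of these data known. All 10 alpha subunits are named, with Epas1, the beta subunits Itgb1, Itgb3, Itgb4 and Itgb5, list members past the threshold, and the 3 genes most alike by Pearson's r for each of the 3 members with the smallest p. Lama4, Fn1, Tln1, Epcam, Krt5, Krt14, Krt19, Cdh1, Rn45s and the overlapping genes were added with their values known. An allele that both groups carry and a gene set by this rule are not reported here. Where nothing but separate tumours defines a replicate, p-values measure the spread between tumours. No pair of libraries was alike within sampling noise, so none was merged.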

Additional observations from a re-analysis of the deposited data

Results flagged for a closer look

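In KP tumours, Itga2 stood at 53.5 CPM in KP 5, while the other 3 were between 11.4 and 17.8 CPM; the gap was 0.848 of the group's range, above Dixon's 95% critical value for 4 samples. In KPH2 tumours, Itga8 stood at 183 CPM in KPH2 3, while the other 3 were between 16.6 and 44.4 CPM, a gap of 0.833 of the range. KPH2 1, at 24.4 CPM, was counted among these 4 tumours, and the critical value used is for 4 samples. Such a gap was looked for in 20 groups (10 genes in each of the genotypes), of which chance alone would flag about 1.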

How the results depend on the processing

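No paired analysis was possible because the groups share no replicate numbers. Itga7, the gene that passed, kept its direction under every alternative run, but its call over 7 tumours was lost in each fit over 8 tumours (edgeR, DESeq2 and limma), with the muscle score as a covariate, and without KP 7 or KPH2 2. Itga3 passed with DESeq2 over 7 and 8 tumours, with limma on rlog over 7 and without KP 7, and Itga6 with DESeq2 over 7 and without the low-count filter. Of the 10 genes, 1 was called higher, and 0 with all 8 tumours, with limma on rlog over 8 tumours and with the covariate, 2 without the low-count filter and with limma on rlog over 7 tumours, and 3 with DESeq2 over 7. Leaving out 1 tumour gave 0 to 1, and none was called lower under any alternative. Over all genes, 185 were called higher: 1 with all 8 tumours, 598 with DESeq2 over 7, 9 with limma on rlog over 8, 3 with the covariate and 43 to 183 leaving out 1 tumour. Of lower calls there were 107: 0 with all 8 tumours, 581 and 377 with DESeq2 over 7 and 8, 10 with limma on rlog over 8, 0 with the covariate and 12 to 166 leaving out 1 tumour. The share of higher among all calls was 63.4%, and 50.7% and 38.2% with DESeq2 over 7 and 8 tumours, 47.4% with limma on rlog over 8, and 52.4% to 81.7% leaving out 1 tumour. The cause was not tested. The near-zero log2 fold changes reversed: that of Itga1 was 0.089 with all 8 tumours, 0.084 with DESeq2 and 0.058 with limma on rlog over 8, 0.075 with the covariate, and -0.61 to 0.29 leaving out 1 tumour, and that of Itga4 was -0.13 with all 8 tumours and with DESeq2 over 8, -0.11 with limma on rlog over 8 and with the covariate, and -0.10 to 0.18 leaving out 1. Leaving out 1 tumour, the log2 ratio difference of Itga2 to Itga11 ran from -0.81 to 0.34 and that of Itga5 to Itgav from -0.59 to 0.023. Scaling and Rn45s moved the median of all genes by less than 0.1. With 3 or 4 tumours a group and low counts for Itga11, changes within the intervals given were not excluded.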
